A study of Mus musculus with 18 samples.

Results

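Notum, Wif1, Dkk2, Dkk3, Apcdd1, Znrf3, Rnf43, Axin2, Nkd1 and Nkd2 were followed as a group of 10 Wnt inhibitors, among 36757 genes with counts in mouse colon and tumour organoids. They were chosen by name, as genes whose products hold back Wnt signalling at the ligand, at the receptor or in the cytoplasm. Earlier results of these data were known when they were chosen. RNA was sequenced in 18 libraries, 3 from RNF138fl/fl and 3 from RNF138-/- mice in each of 3 models. All mice were C57BL/6, of either sex, housed together, and entered the models at 6 to 8 weeks of age. Chronic colitis was made with 2% dextran sodium sulfate (DSS) in the drinking water for 7 days and then 14 days of plain water, a cycle repeated 2 times, and tissue was taken 4 weeks after the last cycle. Colitis-associated cancer (CAC) was made with the same DSS cycles, started 4 days after 1 injection of the carcinogen azoxymethane (AOM, 10 mg/kg). Organoids were grown in matrigel from tumour-bearing pieces of CAC colon, so both organoid groups come from animals given AOM and DSS. RNF138 is a RING-type E3 ubiquitin ligase, and the floxed mice served as its wild type controls. The promoter driving a Cre in the RNF138-/- mice is not given in the sources used here. Neither the labels nor the methods say that the libraries of a group came from separate mice or cultures. The p-values therefore measure the spread between these libraries, which may be technical.

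Canonical Wnt signalling stabilises β-catenin, which enters the nucleus with TCF/LEF factors and switches on target genes, and in the colon it keeps crypt stem cells dividing. Several of those targets are inhibitors of the pathway itself, so their messenger RNA is widely read as a record of pathway activity. Axin2, Nkd1, Rnf43, Znrf3 and Notum are the textbook examples in the intestine, where tumours that carry activating Wnt mutations express them at high levels.

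The authors deposited whole-number read counts per gene. Levels are given as CPM, the reads assigned to a gene per 1000000 reads assigned to all genes of its library, after TMM scaling of all 18 libraries together, a scaling that assumes most genes do not change. Total counts were between 11514716 and 24390082 per library. A difference was called where the adjusted p was under 0.05 and the fold change at least 2, by the quasi-likelihood test of edgeR with Benjamini-Hochberg adjustment over all genes tested. Log2 fold changes are given with their standard error (SE) and are libraries labelled RNF138-/- against RNF138fl/fl unless said otherwise. The exact permutation test of 3 libraries against 3 cannot go below p = 0.1 (two-sided) and is given only where it adds to this.

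The targeted gene was not reduced in the libraries labelled RNF138-/-. Rnf138 had between 15.6 and 25.1 CPM in colitis RNF138fl/fl libraries and between 17.99 and 19.4 CPM in those labelled RNF138-/-, and between 37.7 and 55.7 against 42.8 and 50.3 CPM in the organoids. In CAC it lay between 21.5 and 27.6 CPM in RNF138fl/fl libraries and between 39.7 and 45.8 CPM in those labelled RNF138-/-. The counts do not show which exons the reads cover, so they do not check the deletion itself, and the libraries are called "labelled RNF138-/-" throughout. The 3 organoid RNF138fl/fl libraries had no counts of 4 Y-linked genes and 391 to 464 CPM of Xist. The 3 organoid libraries labelled RNF138-/- had 242 to 281 CPM of the Y-linked genes and at most 0.159 CPM of Xist. Sex and genotype therefore cannot be told apart in the organoids, whereas all 12 tissue libraries carried Y-linked counts.

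RNF138fl/fl replicate 3 of the CAC model stood apart from the other CAC libraries. It had the lowest total count of the series, 11514716. Its smooth muscle markers summed to 8388 CPM against 2508 and 3584 CPM in replicates 1 and 2, and its epithelial markers to 17119 CPM against 12510 and 8728 CPM. Most of the 10 inhibitors were far lower in it than in its 2 sister libraries, as the values of each gene show. Set against the 3 colitis RNF138fl/fl libraries, it lay below their range for 5 members (Axin2, Znrf3, Rnf43, Apcdd1 and Dkk3), within it for Nkd1 and above it for the other 4 (Notum, Nkd2, Wif1 and Dkk2). The colitis RNF138fl/fl libraries had 6513 to 7778 CPM of the smooth muscle markers. For most members this library, labelled CAC, was thus nearer to colitis tissue than to the other CAC libraries, and the label itself was not tested. The counts of members called by the main edgeR fits that rest on it are given with and without it, and the counts under other settings, such as DESeq2 or another scaling, were computed only with it.

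The plot of levels by library shows 8 members with low colitis libraries, CAC libraries that are higher apart from RNF138fl/fl replicate 3, and organoid libraries that split by genotype. Nkd2 and Dkk3 do not have this shape.

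**Figure D1:**
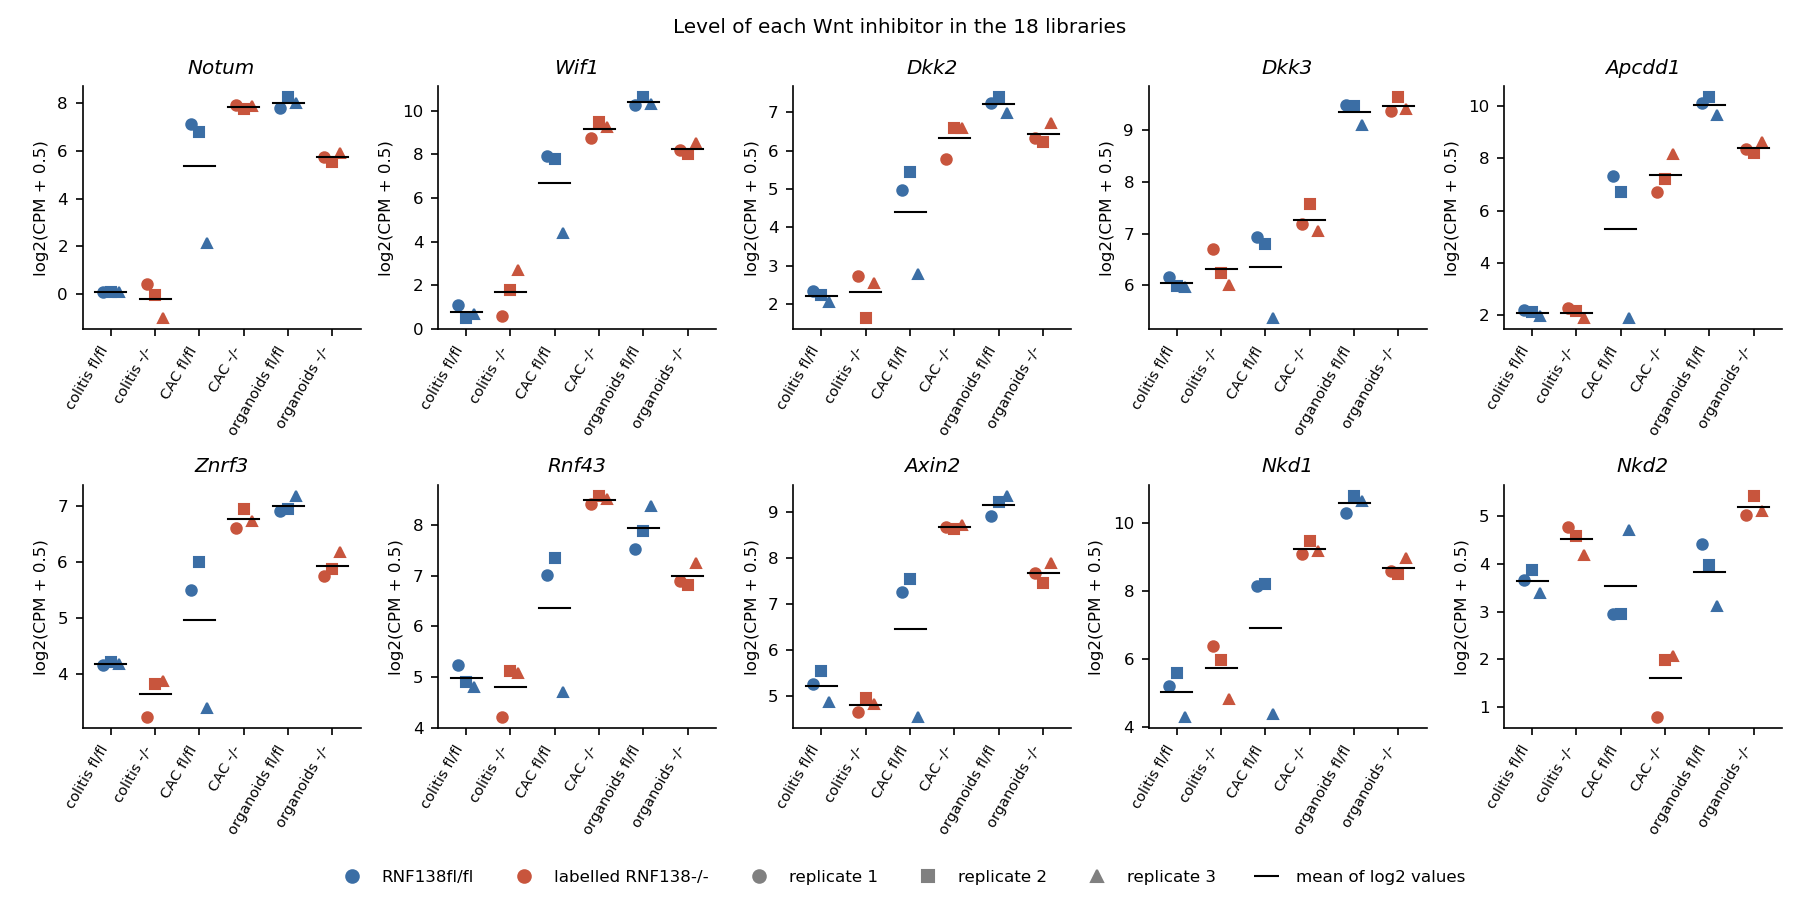
Level of each of the 10 inhibitors, as log2(CPM + 0.5), in the 3 libraries of each of 6 groups, with fl/fl for RNF138fl/fl and -/- for the libraries labelled RNF138-/-. Marker shape gives the replicate number and the black line the mean of the log2 values, and CAC RNF138fl/fl replicate 3, a blue triangle, lies well below replicates 1 and 2 in every panel but Nkd2, where it lies above them (25.8 against 7.26 and 7.20 CPM).

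Promoters of 4 members are shown, because the first 3 of them belong to genes that fell together in organoids and the fourth, Nkd2, rose there while its close relative Nkd1 fell. From the RefSeq promoter table on GRCm38.p6, 7 promoters of 6 members were read (Axin2, Dkk2, Nkd1, Nkd2, Wif1 and 2 for Rnf43). Each ran from 250 bases before to 50 bases after the annotated start. Promoters of Apcdd1, Notum, Znrf3 and Dkk3 were not among them, so the window counts below leave these members out. Capitals mark the letters CTTTG, on either strand, the first 5 letters of the TCF/LEF motif.
Axin2, chr11:108920099-108920398, plus strand: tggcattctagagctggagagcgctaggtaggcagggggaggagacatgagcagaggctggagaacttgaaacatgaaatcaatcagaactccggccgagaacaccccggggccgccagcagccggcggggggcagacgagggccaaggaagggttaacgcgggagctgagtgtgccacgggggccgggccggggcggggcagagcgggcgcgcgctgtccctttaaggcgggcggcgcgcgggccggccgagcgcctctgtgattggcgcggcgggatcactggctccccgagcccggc
Wif1, chr10:121033754-121034053, plus strand: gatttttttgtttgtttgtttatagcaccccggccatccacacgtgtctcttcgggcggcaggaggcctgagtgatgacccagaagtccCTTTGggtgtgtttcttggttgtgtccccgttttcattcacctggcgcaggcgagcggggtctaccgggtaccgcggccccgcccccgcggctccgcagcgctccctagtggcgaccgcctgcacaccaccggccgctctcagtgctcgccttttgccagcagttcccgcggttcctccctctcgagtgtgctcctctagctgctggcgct
Nkd1, chr8:88527383-88527682, plus strand: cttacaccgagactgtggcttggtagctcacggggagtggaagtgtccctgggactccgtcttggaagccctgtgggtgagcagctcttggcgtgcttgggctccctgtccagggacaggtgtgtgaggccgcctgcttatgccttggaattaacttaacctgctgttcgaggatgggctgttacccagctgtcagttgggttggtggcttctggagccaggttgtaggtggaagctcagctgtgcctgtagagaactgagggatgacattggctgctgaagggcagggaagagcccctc
Nkd2, chr13:73847582-73847881, minus strand: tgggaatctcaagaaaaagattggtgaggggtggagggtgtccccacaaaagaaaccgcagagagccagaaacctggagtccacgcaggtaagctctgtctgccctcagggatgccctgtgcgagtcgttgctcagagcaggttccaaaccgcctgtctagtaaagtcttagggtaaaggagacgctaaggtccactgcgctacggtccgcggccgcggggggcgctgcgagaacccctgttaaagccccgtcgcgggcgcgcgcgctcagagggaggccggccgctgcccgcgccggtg
The core CTTTG was present once in the Wif1 window and once in that of Dkk2, and in none of the other 5 windows. It occurs in 53.9% of all 32851 promoters of this length. The 7-letter motif CTTTGNN, in which each N was A or T, searched on both strands, was in 0 of the 7 windows and in 16.9% of all promoters. These letters are simply not in these 300-base windows, and nothing follows from that about TCF/LEF binding elsewhere in the genes. The Axin2 window was 70.0% G and C with 31 CG pairs, and those of Wif1 and Nkd2 were both 63.0% with 25 and 26. The medians over all promoters were 52.7% and 7. The Nkd1 window had 58.3% and 6. That window lies inside the gene by the gene positions used here, which start Nkd1 at 88521354, so its values do not describe that start.

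In colitis no inhibitor differed between the genotypes past the threshold. Of the 9 members tested, 0 were called by edgeR, 2 had an unadjusted p under 0.05 (Nkd2 and Wif1), and DESeq2 also called 0. Over all 16623 genes tested the share called was 0.0902%. Notum was removed by the filter on low counts, with 0 to 14 counts in any colitis library. The groups did not overlap for 2 of the 9, Nkd2 and Znrf3, against 17.1% of all genes tested. Nkd2 had a log2 fold change of 0.90 (SE 0.23, adjusted p = 0.22) and Znrf3 one of −0.53 (SE 0.23, adjusted p = 0.481). The median log2 fold change was 0.17 over the 9 members and 0.02 over all genes tested.

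In CAC tissue the point estimates of 9 of the 10 inhibitors were above 0 in the libraries labelled RNF138-/-, and 0 of the 10 were called over all 6 libraries. The share called over 17752 genes was 5.37%. An unadjusted p under 0.05 was reached by 5 members, Axin2, Dkk2, Rnf43 and Znrf3 with higher and Nkd2 with lower levels. The groups did not overlap for 9 of 10 members, all but Apcdd1, against 44.2% of all genes tested, and for 9 of 10 against 50% when RNF138fl/fl replicate 3 was left out. DESeq2 called 4 members (Axin2, Dkk2 and Rnf43 higher, Nkd2 lower), with 3.14% of all genes called higher and 10.7% lower. The fit of all 18 libraries called 6, those 4 with Wif1 and Znrf3 higher, with 3.76% of all genes higher and 10.9% lower.

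Without RNF138fl/fl replicate 3, the edgeR fit called 4 of the 10 higher in CAC libraries labelled RNF138-/-, when 0.911% of all 18450 genes tested were called higher. Axin2 was 2.37-fold higher (log2 fold change 1.24, SE 0.15, adjusted p = 0.0126) and Rnf43 2.42-fold higher (1.28, SE 0.16, adjusted p = 0.0132). Nkd1 was 2.07-fold higher (1.05, SE 0.17, adjusted p = 0.0249) and Wif1 2.47-fold higher (1.30, SE 0.25, adjusted p = 0.0327). Notum (0.85, SE 0.14, adjusted p = 0.0255) and Znrf3 (0.98, SE 0.20, adjusted p = 0.0376) passed the p threshold and stayed under the 2-fold one. Leaving out this library lowered the point estimates of the 9 members above 0 and narrowed their errors, for Axin2 from 1.72 (SE 0.67) to 1.24 (SE 0.15).

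In the CAC tissue the smooth muscle markers moved with the genotype label, and so did some others. The 6 smooth muscle markers summed to 113 to 242 CPM in the libraries labelled RNF138-/- against 2508 to 8388 CPM in RNF138fl/fl libraries, and all 6 were called lower. The 10 epithelial markers summed to 6975 to 8492 CPM against 8728 to 17119 CPM, with all 10 point estimates below 0 and 2 called. The 6 neuron and glia markers summed to 6.06 to 9.82 CPM against 19.0 to 44.0 CPM, with 3 called lower. The 4 fat markers summed to 14.3 to 15.2 against 37.2 to 80.9 CPM, and both that were tested, Adipoq and Fabp4, were called lower. Of the 6 leukocyte markers 1 was called lower, the B cell gene Cd79a (1.04 to 2.66 against 14.2 to 29.4 CPM). The 6 squamous epithelium markers summed to 23.6 to 98.7 against 3.79 to 36.9 CPM, with 0 called and the 3.79 CPM in RNF138fl/fl replicate 3. In colitis they summed to 2.68 to 19.7 against 1.98 to 2.96 CPM, and in organoids to 57.5 to 73.5 against 56.9 to 94.8 CPM. The part of these cell types in the levels of the inhibitors was not tested. In bulk tissue, fewer cells of a type and less RNA per cell cannot be told apart.

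In the organoids the direction was the other way, and 8 of the 10 inhibitors were called. Apcdd1, Axin2, Nkd1, Notum, Rnf43, Wif1 and Znrf3 fell in the organoids labelled RNF138-/-, by 2.00-fold to 5.03-fold, and Nkd2 rose 2.39-fold. Over all 15294 genes tested, 7.04% were called lower and 7.94% higher. The groups did not overlap for 9 of the 10, all but Dkk3, against 53.6% of all genes. The median log2 fold change was −1.32 over the 10 members and −0.04 over all genes. Dkk2 passed the p threshold under the 2-fold one (−0.82, SE 0.16, adjusted p = 0.00801). The fit of all 18 libraries, which shares a larger spread, called 4 of them lower, Axin2, Nkd1, Notum and Wif1, with 4.01% of all genes called lower. DESeq2 called 7, all but Rnf43 of the 8, with 6.75% of all genes lower and 8.43% higher.

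Marker levels differed between the organoid groups as well. The 8 fibroblast markers, which include the collagen gene Col1a1 and the surface protein gene Thy1, summed to 41481 to 51056 CPM in organoids labelled RNF138-/- against 9378 to 23784 CPM in RNF138fl/fl organoids and 958 to 1765 CPM in the 12 tissue libraries, and 7 of the 8 were called higher between the organoid groups. The epithelial markers summed to 5779 to 8496 against 10071 to 11037 CPM, and 2 of 10 were called lower. The leukocyte markers summed to 93.3 to 140 against 23.1 to 32.2 CPM. Of these 6 genes 3 were tested and 1 was called, Lyz2 (72.4 to 111 against 4.07 to 7.56 CPM), while Cd68 had 11.7 to 17.9 against 15.3 to 21.2 CPM and Cd3e had no counts. The smooth muscle markers summed to 1584 to 1780 against 265 to 1359 CPM, with all 6 point estimates above 0 and 2 called higher, Actg2 and Myh11. The endothelial markers summed to at most 9.26 CPM in any organoid library, and 1 of them was called higher, Vwf (3.97 to 6.18 against 2.00 to 3.04 CPM). The neuron gene Uchl1 was called lower (4.98 to 6.79 against 15.3 to 19.3 CPM). Epithelial markers were thus present in all organoid libraries. The endothelial marker Pecam1 had at most 0.476 CPM and the leukocyte marker Ptprc at most 1.12 CPM in any organoid. When the organoid libraries were scaled to their epithelial markers, an alternative chosen after seeing the data, the median of all genes moved to 0.55 and 5 of the 10 members were called. Under this scaling 23.4% of all genes were called higher and 2.7% lower. Apcdd1 (−1.135), Nkd1 (−1.386), Notum (−1.766) and Wif1 (−1.621) were lower and Nkd2 (1.885) higher under it. Axin2 (−0.968, adjusted p = 0.00193) then missed only the 2-fold threshold, and Znrf3 (−0.529, adjusted p = 0.0662) and Rnf43 (−0.435, adjusted p = 0.156) missed both.

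**Figure D2:**
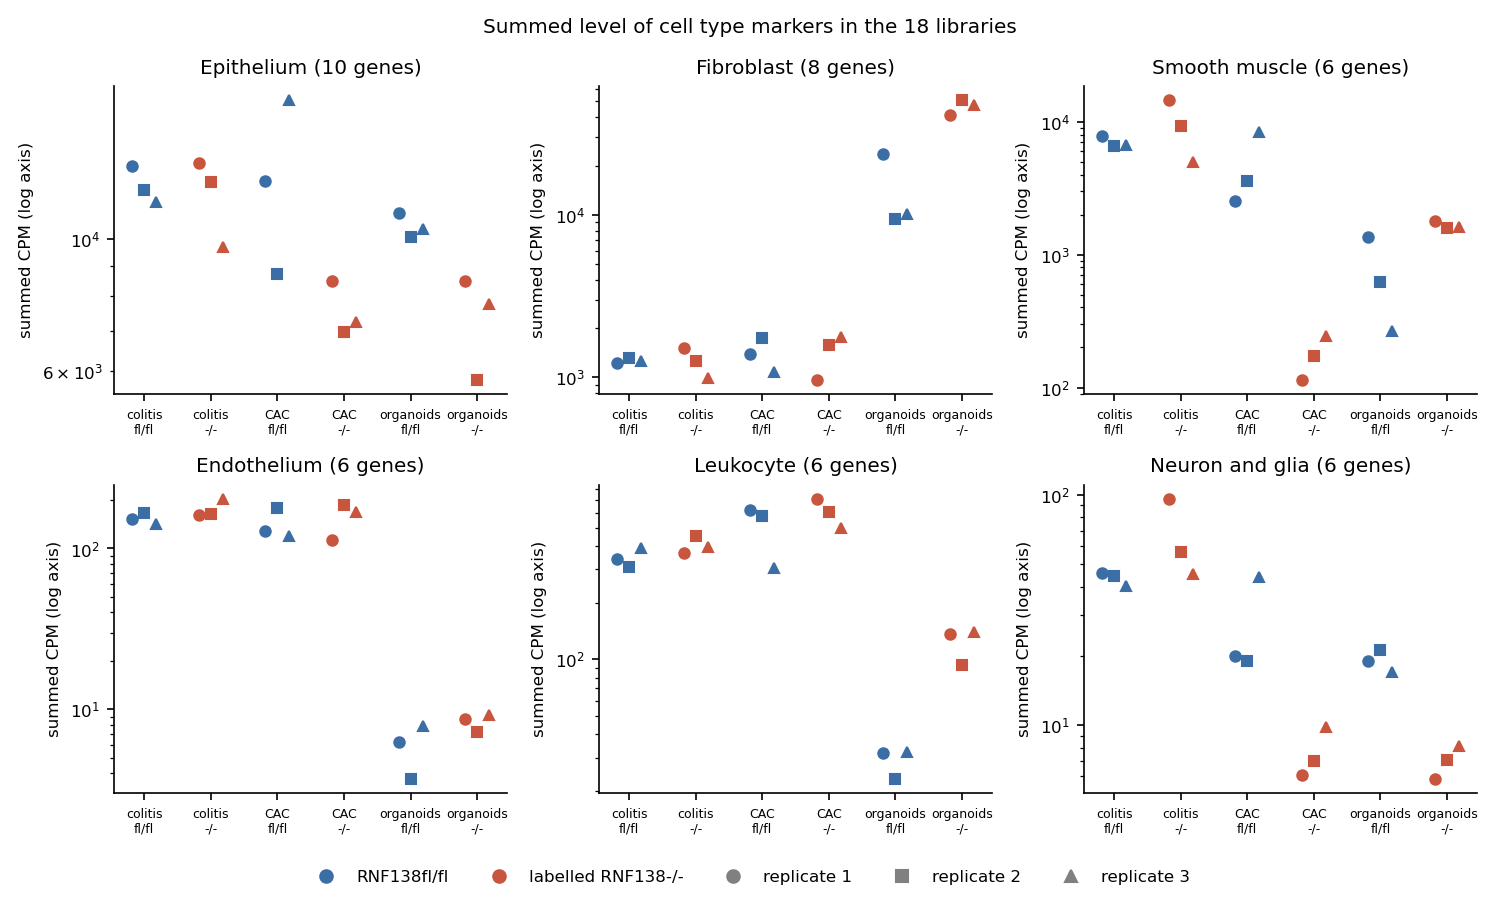
Summed CPM (log axis) of marker genes of 6 cell types in the 3 libraries of each group, fixed lists of 6 to 10 genes, with marker shape for the replicate number. Fibroblast markers are at 9378 CPM or more in every organoid library and highest in those labelled RNF138-/-, and smooth muscle markers are at 242 CPM or less in the 3 CAC libraries labelled RNF138-/-.

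The plot of the genotype differences sets the 3 models side by side for each member. The CAC and organoid groups share no library, so the estimates of one do not enter the other.

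**Figure D3:**
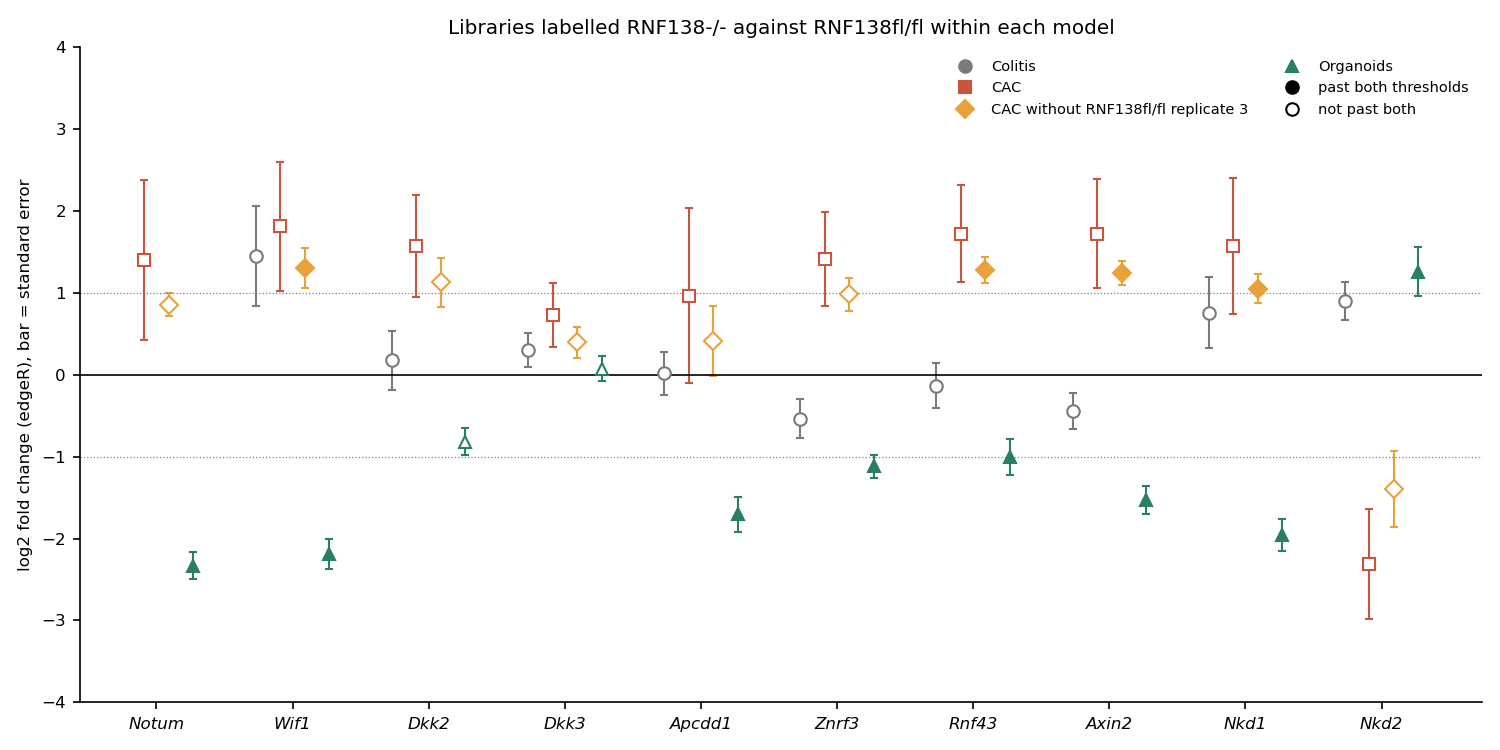
Log2 fold change of each inhibitor in the libraries labelled RNF138-/- against RNF138fl/fl (vertical axis, with its standard error) in colitis, in CAC, in CAC without RNF138fl/fl replicate 3 and in organoids; filled symbols are past both thresholds and dotted lines mark a 2-fold change. The organoid values of 8 members lie below 0, between −2.33 and −0.82, and their CAC values lie above 0, between 0.96 and 1.81, while Nkd2 lies at −2.31 in CAC (−1.39 without RNF138fl/fl replicate 3) and at 1.26 in organoids.

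Scaling set how all genes split into higher and lower calls. Without TMM scaling the organoid comparison called 936 genes higher and 1654 lower, in place of 1215 and 1077, and with scaling to epithelial markers 3575 higher and 413 lower (23.4% and 2.7% of all genes). Without TMM 8 inhibitors were called lower, Dkk2 (−1.02) in addition to the 7, and 1 higher. In CAC, 97 genes were called higher and 857 lower, and 248 and 471 when the libraries were scaled to their epithelial markers, which moved the median of all genes to 0.71. No inhibitor was called in CAC under either scaling. Under the epithelial scaling the median over the 10 members was 2.02, in place of 1.49, and Nkd2 was at −1.34, in place of −2.31. In colitis, 3 and 12 genes were called, and 5 and 9 under the epithelial scaling.

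The difference between the models was then tested itself, as interactions in the fit of all 18 libraries. The genotype difference in organoids differed from that in CAC for 8 of the 10 members. It was lower for 7 of them, Axin2, Dkk2, Nkd1, Notum, Rnf43, Wif1 and Znrf3, by between 2.39 and 4.00 log2 units, and higher for Nkd2 by 3.53. Over all 19390 genes tested 7.54% were called lower and 11.4% higher in this test. Without CAC RNF138fl/fl replicate 3, these 8 were called and Apcdd1 was too (−2.10, SE 0.45, adjusted p = 0.00455), and the largest, for Wif1, was −3.47, with 5.54% of all genes called lower and 9.42% higher. The genotype difference in CAC differed from that in colitis for 3 members, higher for Axin2 (2.21, SE 0.64, adjusted p = 0.032) and Znrf3 (2.00, SE 0.57, adjusted p = 0.0286) and lower for Nkd2 (−3.13, SE 0.67, adjusted p = 0.00814), against 2.57% of all genes called higher and 9.37% called lower. The call of Nkd2 was lost in 0 of 12 fits that left out 1 library, with an adjusted p of up to 0.0209. Those of Axin2 and Znrf3 depended on single libraries. Leaving out 1 of 12 libraries ended the call of Axin2 in 7 of 12 cases, with an adjusted p of up to 0.0741 (without colitis RNF138fl/fl replicate 2), and that of Znrf3 in 5 of 12, up to 0.0713 (without colitis replicate 1 labelled RNF138-/-). Without CAC RNF138fl/fl replicate 3, Axin2, Znrf3 and Nkd2 were called and Rnf43 was too (1.44, SE 0.37, adjusted p = 0.0253), with 1.17% of all genes called higher and 5.83% lower. Without TMM scaling, all genes split into 844 higher and 1453 lower calls for CAC minus colitis, in place of 498 and 1817, and into 1520 and 3434 for organoids minus CAC, in place of 2211 and 1462.

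Among the secreted inhibitors that act on the ligand, Notum removes the lipid that Wnt proteins need for receptor binding. Its gene lies on the minus strand of chromosome 11 of mm10, from 120653788 to 120661175. In colitis it was close to undetected, at 0.559, 0.562 and 0.557 CPM in RNF138fl/fl libraries and 0.838, 0.480 and 0 CPM in those labelled RNF138-/-. In CAC it had 138, 110 and 3.88 CPM in RNF138fl/fl libraries and 237, 216 and 232 CPM in those labelled RNF138-/-. The 3 libraries labelled RNF138-/- were high and alike, and RNF138fl/fl replicate 3 was 31.9 times below the mean of its sister libraries. In organoids the values were 219, 302 and 253 CPM against 53.3, 45.7 and 59.1 CPM, and Notum fell 5.03-fold in those labelled RNF138-/- (log2 fold change −2.33, SE 0.16, adjusted p = 0.000411). Every organoid library labelled RNF138-/- lay below every RNF138fl/fl one. The antisense gene Notumos overlaps Notum and had 11 to 302 counts in CAC RNF138fl/fl libraries, 646 to 849 in those labelled RNF138-/-, 299 to 389 in RNF138fl/fl organoids and 95 to 112 in organoids labelled RNF138-/-. The counting strand is not given in the sources used here, so reads of the pair cannot be told apart.

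Wif1, a secreted protein that binds Wnt ligands, rose from near the detection limit to among the highest of the group. Colitis libraries had 1.62, 0.899 and 1.11 CPM (RNF138fl/fl) and 1.02, 2.94 and 5.93 CPM (labelled RNF138-/-). In CAC the values were 244, 219 and 20.4 CPM against 426, 717 and 607 CPM, so each library labelled RNF138-/- was above each RNF138fl/fl one (log2 fold change 1.81, SE 0.79, adjusted p = 0.161). In organoids they were 1229, 1587 and 1269 CPM against 295, 262 and 365 CPM, and Wif1 fell 4.55-fold (−2.19, SE 0.18, adjusted p = 0.000678). The order of the genotypes in the organoids was the reverse of that in CAC. Per kilobase of exon, Wif1 was the most abundant of the 10 in RNF138fl/fl organoids (561 CPM per kb) and in CAC libraries labelled RNF138-/- (240 CPM per kb).

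Dkk2 belongs to the Dickkopf family, whose members bind the co-receptors Lrp5 and Lrp6. It was at 4.58, 4.21 and 3.65 CPM against 6.16, 2.58 and 5.31 CPM in colitis, groups that overlap. In CAC it was at 31.0, 42.8 and 6.34 CPM against 54.3, 96.4 and 96.8 CPM (log2 fold change 1.57, SE 0.62, adjusted p = 0.133, and 1.13 without RNF138fl/fl replicate 3). In organoids it was at 151, 169 and 126 CPM against 80.5, 74.9 and 105 CPM. The organoid groups did not overlap.

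Dkk3, a divergent Dickkopf protein that does not bind those co-receptors in the manner of the others, was the exception among the secreted members. It was already at 71.4, 62.9 and 62.1 CPM in colitis RNF138fl/fl libraries and at 103.9, 75.1 and 63.9 CPM in those labelled RNF138-/-. CAC libraries had 122, 111 and 40.7 CPM against 145, 192 and 132 CPM (log2 fold change 0.73, SE 0.39, adjusted p = 0.232, and 0.40 without RNF138fl/fl replicate 3). Organoids had 722, 712 and 553 CPM against 664, 801 and 683 CPM, groups that overlap, with a log2 fold change of 0.07 (SE 0.15, adjusted p = 0.733). That small value turned to −0.13 when TMM scaling was left out. Dkk3 was the most abundant member per kilobase in colitis RNF138fl/fl libraries (19.5 CPM per kb) and in organoids labelled RNF138-/- (213 CPM per kb).

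At the cell surface, Apcdd1 is a membrane glycoprotein that binds Wnt and Lrp5. It had 3.20 to 4.37 CPM over all 6 colitis libraries. In CAC it had 159, 106 and 3.22 CPM against 106, 147 and 287 CPM, the only member whose CAC groups overlapped (log2 fold change 0.96, SE 1.07, adjusted p = 0.543, and 0.41 without RNF138fl/fl replicate 3). In organoids it had 1127, 1303 and 805 CPM against 330, 294 and 396 CPM and fell 3.26-fold (−1.71, SE 0.21, adjusted p = 0.00186). CAC replicate 3 labelled RNF138-/- was the highest of the tissue libraries for Apcdd1.

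Znrf3 and Rnf43 are related transmembrane E3 ubiquitin ligases that remove Frizzled receptors from the membrane, and R-spondins acting through Lgr receptors withdraw them. Znrf3 had 17.4, 17.97 and 17.6 CPM in colitis RNF138fl/fl libraries and 8.86, 13.6 and 14.1 CPM in those labelled RNF138-/-. In CAC it had 44.8, 63.2 and 9.94 CPM against 96.9, 123 and 107 CPM, and in organoids 119, 123 and 145 CPM against 53.1, 58.1 and 72.05 CPM. The genotypes thus stood in one order in colitis and organoids and in the opposite order in CAC. The organoid difference was a 2.17-fold fall (log2 fold change −1.12, SE 0.14, adjusted p = 0.00197).

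Rnf43 had 37.1, 29.4 and 27.4 CPM against 18.1, 34.4 and 33.2 CPM in colitis. In CAC it had 129, 161 and 25.7 CPM against 338, 377 and 360 CPM, more than 2 times higher in each library labelled RNF138-/- than in the highest RNF138fl/fl library. In organoids it had 184, 234 and 331 CPM against 119, 113 and 152 CPM (log2 fold change −1.003, SE 0.22, adjusted p = 0.0111), the smallest of the 7 falls. That call was lost without RNF138fl/fl replicate 3 (−0.75), without replicate 1 labelled RNF138-/- (−0.94) and without replicate 2 labelled RNF138-/- (−0.91). It was also lost with DESeq2 (−0.977), with RLE size factors (−0.977), without the filter on low counts (−0.984) and with a replicate block (−0.974). Rnf43 was the member whose highest group mean was in CAC labelled RNF138-/- rather than in an organoid group.

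In the cytoplasm, Axin2 is a scaffold of the complex that marks β-catenin for degradation. It lies on the plus strand of chromosome 11, from 108920349 to 108950783. Colitis libraries had 37.5, 46.3 and 28.6 CPM against 24.7, 30.2 and 27.8 CPM. In CAC they had 153, 186 and 22.6 CPM against 408, 398 and 422 CPM, with a coefficient of variation of 2.89% among the 3 libraries labelled RNF138-/- and 71.7% among the RNF138fl/fl ones. Organoids had 482, 591 and 651 CPM against 202, 174 and 236 CPM, and Axin2 fell 2.89-fold (log2 fold change −1.53, SE 0.17, adjusted p = 0.00135).

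Nkd1 and Nkd2 are paralogous Naked cuticle proteins that bind Dishevelled, and in CAC and organoids they did not move together. Nkd1 had 35.8, 46.8 and 18.8 CPM against 83.1, 61.5 and 27.9 CPM in colitis. In CAC it had 280, 296 and 20.3 CPM against 540, 709 and 576 CPM. In organoids it had 1257, 1766 and 1610 CPM against 379, 357 and 494 CPM, a 3.87-fold fall (log2 fold change −1.95, SE 0.20, adjusted p = 0.00107). In CAC and organoids the genotypes of Nkd1 thus stood in the same order as those of Notum, Wif1 and Axin2.

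Nkd2 had 12.2, 14.2 and 10.0 CPM against 26.9, 23.5 and 17.7 CPM in colitis. In CAC it had 7.26, 7.20 and 25.8 CPM against 1.22, 3.44 and 3.71 CPM (log2 fold change −2.31, SE 0.67, adjusted p = 0.0761). Without RNF138fl/fl replicate 3 the value was −1.39 (SE 0.46, adjusted p = 0.112). In organoids it had 20.9, 15.3 and 8.16 CPM against 32.3, 42.5 and 34.3 CPM, and rose 2.39-fold (1.26, SE 0.30, adjusted p = 0.0148). It was high where Nkd1 was low in CAC and in organoids, and RNF138fl/fl replicate 3 of CAC, the lowest CAC library for Nkd1, was the highest CAC library for Nkd2. The organoid call was lost without RNF138fl/fl replicate 3 (0.96) and without replicate 2 labelled RNF138-/- (1.14, adjusted p = 0.0576).

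From colitis to CAC tissue, 7 of the 10 inhibitors rose in RNF138fl/fl libraries and 8 in those labelled RNF138-/-, where Nkd2 fell. The 7 stood against 9.78% of 19390 genes called higher in RNF138fl/fl libraries, and the median log2 fold change was 2.15 over the members and 0.04 over all genes. Notum rose 148-fold (log2 fold change 7.21, SE 0.97, adjusted p = 0.000129), Wif1 132-fold (7.05, SE 0.81, adjusted p = 3.34e-05) and Apcdd1 23.6-fold (4.56, SE 0.83, adjusted p = 0.00129). Dkk2 rose 6.48-fold, Nkd1 5.88-fold, Rnf43 3.36-fold and Axin2 3.22-fold. Znrf3 (1.16, adjusted p = 0.0509), Dkk3 (0.48) and Nkd2 (0.13) were not called. Without CAC RNF138fl/fl replicate 3, when 10.7% of all genes were called higher, Znrf3 was called as well (1.62, adjusted p = 4.08e-05), Nkd2 was at −0.75, and the rises ran up to 219-fold for Notum, 190-fold for Wif1 and 34.9-fold for Apcdd1. The calls of Axin2 and Rnf43 were the least stable: Axin2 was lost without either of CAC replicates 1 and 2 (1.46 and 1.20) or of colitis replicates 1 and 3 (1.66 and 1.51), and Rnf43 without CAC replicate 2 (1.27) or colitis replicate 2 (1.66). A fit of only these 6 libraries called 4, Apcdd1, Dkk2, Notum and Wif1, with 6.75% of all genes called higher.

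In the libraries labelled RNF138-/-, 8 of the 10 rose from colitis to CAC, against 17.5% of all genes, and Nkd2 fell 8.04-fold, when 19.6% of all genes fell. The rises were 46.8-fold for Apcdd1, 17.6-fold for Dkk2, 14.9-fold for Axin2, 12.5-fold for Rnf43, 10.6-fold for Nkd1 and 8.94-fold for Znrf3. Wif1 rose 175-fold and Notum by 9.05 log2 units (SE 1.04), where the colitis libraries held 0 to 14 counts of it. Dkk3 was at 0.95 (SE 0.30, adjusted p = 0.0144), just under the 2-fold threshold. It passed without TMM scaling (1.28), and without colitis replicate 1 (1.17) or CAC replicate 3 (1.06) of the libraries labelled RNF138-/-. In these libraries the smooth muscle markers summed to 4998 to 14540 CPM in colitis and 113 to 242 CPM in CAC, and the neuron and glia markers to 45.2 to 95.9 and 6.06 to 9.82 CPM. In RNF138fl/fl libraries they summed to 6513 to 7778 and 2508 to 8388 CPM, and to 40.4 to 45.6 and 19.0 to 44.0 CPM. The part of these cell types in the rises was not tested.

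Between CAC tissue and organoids the cell types differed as well. In RNF138fl/fl libraries fibroblast markers summed to 1083 to 1736 CPM in CAC and 9378 to 23784 CPM in organoids, leukocyte markers to 304 to 619 and 23.1 to 32.2 CPM, and endothelial markers to 120 to 178 and 3.67 to 7.83 CPM. The Y-linked genes were at 188 to 229 CPM in the CAC RNF138fl/fl libraries and at 0 in the RNF138fl/fl organoids, so sex and model cannot be told apart in that contrast. In RNF138fl/fl libraries 8 of the 10 rose, against 17.5% of all genes, and the remaining pair was Notum (1.62, SE 0.70, adjusted p = 0.0543) and Nkd2 (0.16, SE 0.46, adjusted p = 0.78). Apcdd1 rose 12.04-fold, Wif1 8.43-fold, Nkd1 7.77-fold, Dkk3 7.25-fold, Dkk2 5.52-fold, Axin2 4.76-fold, Znrf3 3.26-fold and Rnf43 2.37-fold. Without CAC RNF138fl/fl replicate 3, Notum (1.05) and Nkd2 (1.03) were called and Rnf43 (0.78) was not, with 15.7% of all genes called higher, and the other 7 rises were between 2.38-fold and 8.12-fold. Rnf43 was also lost without organoid RNF138fl/fl replicate 3 (0.98), without TMM (1.03, adjusted p = 0.0742) and in the fit of only these 6 libraries (1.20, adjusted p = 0.125). Notum was also called without CAC replicate 1 (2.16), with the replicate block (1.85) and without the filter on low counts (1.57).

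In the libraries labelled RNF138-/-, 2 members rose from CAC tissue to organoids, Dkk3 by 4.59-fold and Nkd2 by 12.9-fold, against 17.9% of all genes. Notum fell 4.33-fold and Rnf43 2.80-fold, against 26.5% of all genes. Axin2 (−1.004, adjusted p = 0.0643), Znrf3 (−0.83), Wif1 (−0.92), Nkd1 (−0.57), Dkk2 (0.07) and Apcdd1 (0.92) were not called. Notum was lost without organoid replicate 2 labelled RNF138-/- (−2.02, adjusted p = 0.0588). In the libraries labelled RNF138-/-, fibroblast markers summed to 958 to 1765 CPM in CAC and 41481 to 51056 CPM in organoids. Smooth muscle markers summed to 113 to 242 and 1584 to 1780 CPM, leukocyte markers to 500 to 709 and 93.3 to 140 CPM, and endothelial markers to 112 to 185 and 7.25 to 9.26 CPM. The part of these cell types was not tested. These contrasts share the CAC libraries with the contrasts against colitis. The median of all genes was −0.14 in the RNF138fl/fl contrast and −0.22 in the other, and without TMM scaling −0.30 and −0.84. Under that scaling 7 members were called in the libraries labelled RNF138-/-, with Axin2, Wif1 and Znrf3 lower as well, and Dkk2 moved to −0.56. All genes then split into 2177 higher and 8153 lower, in place of 3466 and 5138, and for CAC against colitis in these libraries into 4789 and 2932, in place of 3392 and 3804.

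**Figure D4:**
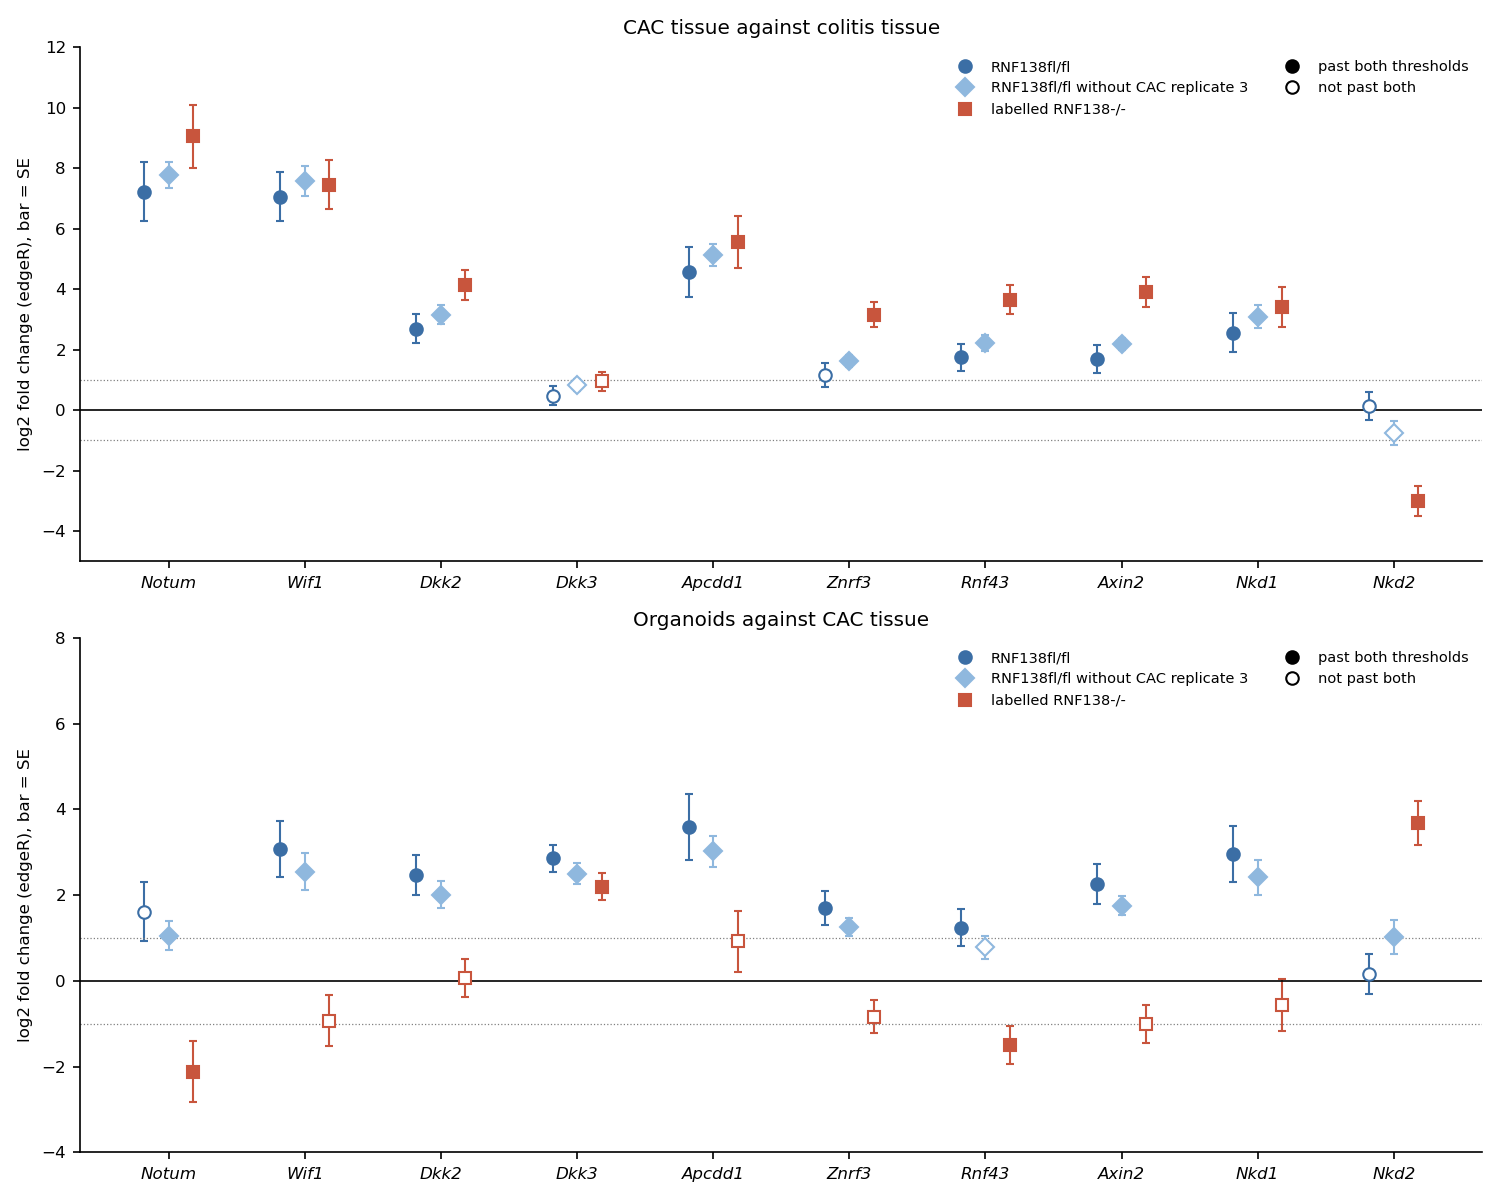
Log2 fold change (vertical axis, with its standard error) of each inhibitor in CAC against colitis tissue, above, and in organoids against CAC tissue, below, for RNF138fl/fl libraries, the same without CAC replicate 3, and libraries labelled RNF138-/-; filled symbols are past both thresholds. All 10 RNF138fl/fl values over 3 CAC libraries are above 0 in both panels, whereas in the lower panel 6 of the 10 values of libraries labelled RNF138-/- lie below 0, down to −2.11 for Notum.

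Ordered by group mean, 6 members (Notum, Nkd1, Axin2, Znrf3, Wif1 and Rnf43) had their lowest 2 means in colitis, followed by CAC RNF138fl/fl and organoids labelled RNF138-/-. For Notum the order of those last 2 was reversed, and without CAC RNF138fl/fl replicate 3 it was for Rnf43 too. Their top 2 means were CAC labelled RNF138-/- and RNF138fl/fl organoids. The ranges of neighbouring groups in that order overlapped in 1 pair for Wif1, in 2 for Nkd1 and Dkk2 and in 3 for each of the others. Without that library they overlapped in 1 pair for Wif1 and Nkd1 and in 2 for each of the others, and Nkd2 in CAC RNF138fl/fl moved below colitis RNF138fl/fl. Apcdd1 and Dkk2 had both organoid groups on top, and Dkk2 overlapped between CAC labelled RNF138-/- and organoids labelled RNF138-/-. Dkk3 had both organoid groups on top with overlapping ranges. Nkd2 was lowest in CAC labelled RNF138-/- (2.79 ± 1.37 CPM, SD, n = 3) and highest in organoids labelled RNF138-/- (36.3 ± 5.39 CPM).

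The rest of the pathway was read from lists of 17 Wnt target genes, 19 ligands, 7 R-spondins and Lgr receptors, 15 Frizzled, Lrp and related receptors, 16 cytoplasmic genes and 15 other antagonists. In colitis 0 genes of these lists were called between the genotypes. In CAC 0.546% of all genes were called higher and 4.83% lower, and 1 of the 17 targets was higher, the matrix protease gene Mmp7 (log2 fold change 2.94, SE 0.61, adjusted p = 0.0449), and 1 lower, the intestinal transcription factor gene Cdx1 (−1.28, SE 0.21, adjusted p = 0.0311), which is also an epithelial marker. The median over the 17 targets was 1.28, and it was 0.01 over all genes. Without RNF138fl/fl replicate 3, 6 of 17 targets were higher and 1 lower (0.911% and 5.25% of all genes), with a median of 0.96. Among the higher ones were Mmp7 (2.54), Smoc2 (1.60), Prox1 (1.32), Ascl2 (1.25), a transcription factor gene of intestinal stem cells, and Tnfrsf19 (1.19).

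In organoids 7 of the 17 targets fell, when 7.04% of all genes were called lower, and 0 rose, with a median of −0.75 against −0.04 over all genes. The largest falls were those of Lef1, one of the TCF/LEF genes (−1.74, SE 0.17), Sp5 (−1.60, SE 0.26), Prox1 (−1.39, SE 0.23), Tnfrsf19 (−1.36, SE 0.17) and Mmp7 (−1.36, SE 0.41). The test of organoids minus CAC called 12 of the 17 lower (7.54% of all genes) and 0 higher, among the 12 Lgr5, the stem cell receptor gene (−3.18, SE 0.76, adjusted p = 0.00748). Lgr5 was at 33.0 to 69.0 CPM in RNF138fl/fl organoids and 29.1 to 39.0 CPM in the others, and in CAC at 6.34 to 60.4 against 120 to 329 CPM. From colitis to CAC, 7 of the 17 targets rose in RNF138fl/fl libraries (9.78% of all genes) and 14 in those labelled RNF138-/- (17.5%), with 1 lower in each (3.81% and 19.6%). From CAC to organoids, 13 rose and 1 fell in RNF138fl/fl libraries, when 17.5% of all genes rose and 26.8% fell, and 1 rose and 5 fell in those labelled RNF138-/-, when 17.9% rose and 26.5% fell. Without CAC RNF138fl/fl replicate 3, the RNF138fl/fl counts were 8 higher and 1 lower from colitis to CAC (10.7% and 4.99% of all genes) and 8 higher, in place of 13, and 1 lower from CAC to organoids (15.7% and 24.7%). The test of organoids minus CAC then called 12 of the 17 lower and 0 higher.

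**Figure D5:**
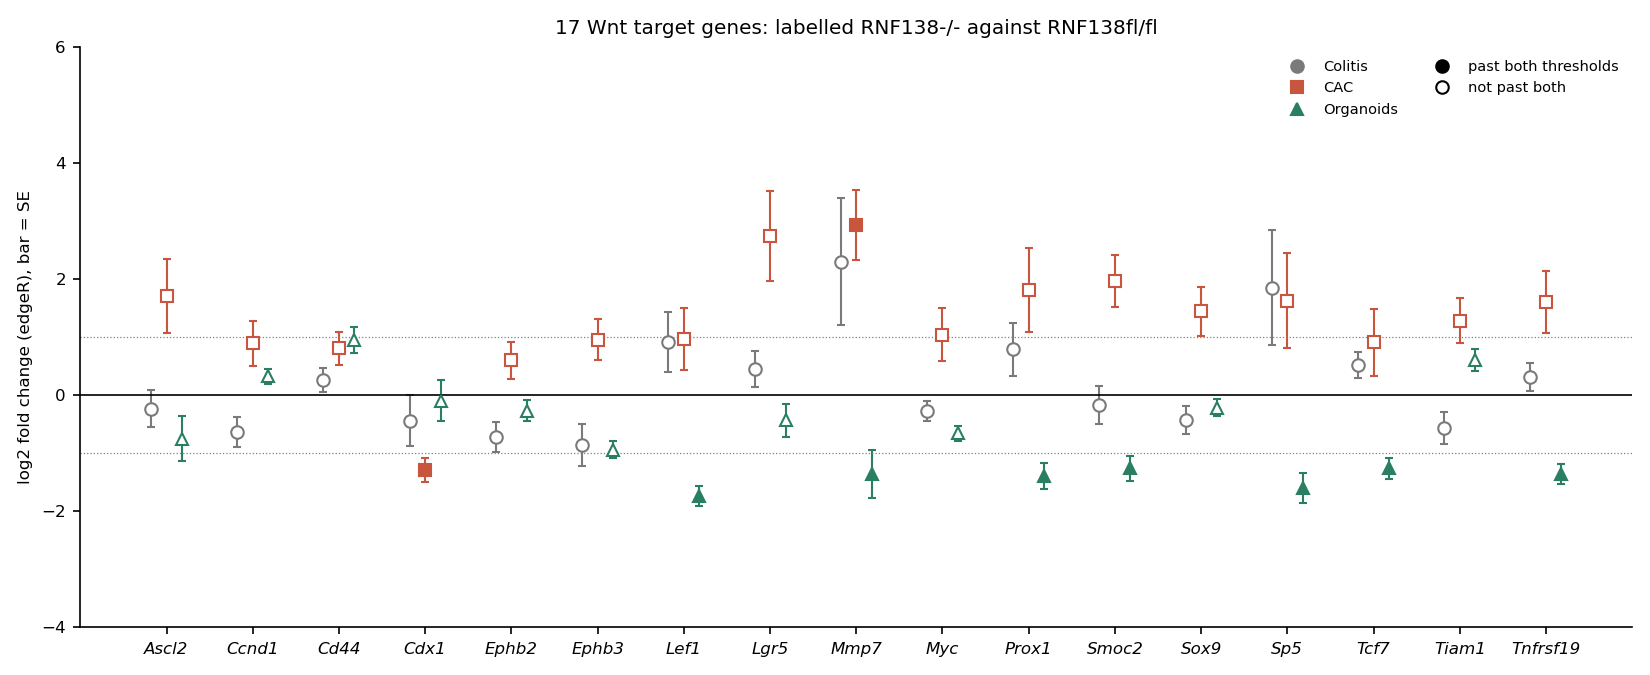
Log2 fold change (vertical axis, with its standard error) of 17 Wnt target genes in the libraries labelled RNF138-/- against RNF138fl/fl in colitis, CAC and organoids; filled symbols are past both thresholds and dotted lines mark a 2-fold change. In organoids 7 symbols are filled, all below −1, and in CAC 2 are, Mmp7 at 2.94 and Cdx1 at −1.28.

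Ligands and their amplifiers were spread over both directions in organoids, where 7.94% of all genes were called higher and 7.04% lower. Of 13 ligands tested, 5 fell, led by Wnt6 (−1.85, SE 0.23) and Wnt10a (−1.66, SE 0.22), and 2 rose, led by Wnt2b (3.79, SE 0.33, adjusted p = 0.000678). Wnt6 was at 293 to 524 CPM in RNF138fl/fl organoids and 97.5 to 137 CPM in the others. Among R-spondins and Lgr receptors, Rspo1 (3.92, SE 0.34) and Rspo3 (1.65, SE 0.20) rose and Rspo4 fell (−1.84, SE 0.49). In CAC, Rspo3 was lower (−2.30, SE 0.51, adjusted p = 0.0491), a call lost without RNF138fl/fl replicate 3. Of 15 receptors tested in organoids, Fzd10 (−1.64), Fzd9 (−1.16) and Fzd6 (−1.02) fell and Lrp6 rose (1.08), and of 16 cytoplasmic genes 1 was called, Apc2 (1.23, SE 0.23).

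Of 8 antagonists outside the 10 that were tested in organoids, when 7.94% of all genes were called higher and 7.04% lower, 3 rose, the secreted Frizzled-related gene Sfrp1 (3.01, SE 0.49, adjusted p = 0.0041), Draxin (2.25, SE 0.60) and Frzb (1.11, SE 0.26), and Trabd2b fell (−1.51, SE 0.28). Sfrp1 was at 196 to 837 CPM in RNF138fl/fl organoids and 3220 to 4942 CPM in those labelled RNF138-/-, where the fibroblast markers were also highest. In CAC, where 4.83% of all genes were called lower, 1 of 11 was called, Sostdc1 (−4.24, SE 0.42, adjusted p = 0.0171), at 0.758 to 1.13 CPM against 0.0405 to 0.0532 CPM.

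The 4 genes most like Axin2 over the 18 libraries, by Pearson correlation of log2 CPM after each model's mean was taken off, were Znrf3 (0.975), Gpld1 (0.973), Rnf180 (0.971) and Ppp1r26 (0.969). For Notum the 5 most alike were Evx1 (0.976), Evx1os (0.955), Fam187b (0.945), Cited1 (0.940) and Aldoc (0.933). For Dkk3 the 5 were Ephb6 (0.960), Ttc39c (0.951), Gpc1 (0.945), Lama5 (0.936) and Ntf5 (0.936). Within single models of 6 libraries the values ran from 0.489 to 0.994 for the genes like Axin2, from 0.845 to 0.998 for those like Notum and from 0.273 to 0.988 for those like Dkk3, whose low values, for Ephb6 (0.406), Ttc39c (0.273) and Lama5 (0.376), were in organoids. These values describe 18 libraries that share their genotype groups, the low CAC library and TMM scaling, and carry no test.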

How the data were processed

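RNA was sequenced from 18 libraries, 3 for each genotype in colitis tissue, CAC tissue and CAC organoids. The authors deposited whole-number read counts per gene without normalization, and a table of their own log2 fold changes and p-values that was not used here. Per the labels' processing notes, reads were handled with STAR 2.6.1d, HTSeq 0.11.2 and DESeq2 on mm10. The paper names Cufflinks and Gencode v.M8. The counting strand is not given in the sources used here. Gene positions come from GENCODE M21 on the same build, to which 99.84% of identifiers matched.

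Each model was fitted on its own 6 libraries with edgeR 4.0.16 in R 4.3.3 (TMM, filterByExpr, glmQLFit, glmQLFTest, two-sided, Benjamini-Hochberg adjustment), and contrasts between models and interactions in one fit of 6 group means. A call needed both thresholds, 0.05 for the adjusted p and 2 for the fold change. Printed CPM use TMM factors of all 18 libraries. DESeq2 1.42.0, RLE factors, no TMM, no filter, a replicate block, other samples in the fit and leaving out each library in turn were the alternatives, with scaling to epithelial markers added after seeing the data. The fits were tested on simulated data. Every member is described, and from each pathway list the called genes, at most 5 by size. The members, lists and tests were chosen with earlier results of these data known. Intervals and errors cover the spread between libraries, and CPM of low genes are limited by the totals of 11514716 to 24390082 counts. Replicate libraries differed by a chi-square of at least 8.05 per degree of freedom, more than counting noise, so none was deposited in duplicate; this does not show that they came from separate animals.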

Additional observations from a re-analysis of the deposited data

Results flagged for a closer look

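The genotype difference itself differed between models for 11 combinations of inhibitor and model, by the interaction test of edgeR with both thresholds. From colitis to CAC it differed by 2.206 for Axin2 (SE 0.64, adjusted p = 0.032), by 1.996 for Znrf3 (SE 0.57, adjusted p = 0.0286) and by −3.133 for Nkd2 (SE 0.67, adjusted p = 0.00814) on the log2 scale. From CAC to organoids it differed by −3.256 for Axin2, −2.395 for Dkk2, −3.528 for Nkd1, −3.730 for Notum, −2.732 for Rnf43, −3.999 for Wif1 and −2.538 for Znrf3, and by 3.527 for Nkd2, with adjusted p between 0.00208 and 0.0136. Of all 19390 genes tested, 2.57% were called higher and 9.37% lower for CAC minus colitis. For organoids minus CAC 11.4% were called higher and 7.54% lower. The calls of Axin2 and Znrf3 for CAC minus colitis depended on single libraries. CAC RNF138fl/fl replicate 3 enters all 11. Without it the 11 were called, with values of 1.71, 1.54 and −2.26 for CAC minus colitis, of −3.47 to −1.93 for the 7 lower ones and of 2.66 for Nkd2 for organoids minus CAC. The differences in smooth muscle, epithelial and fibroblast markers and, in organoids, of sex that go with the genotype label are given with the comparisons, and their part was not tested.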

How the results depend on the processing

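Several settings moved the counts of called inhibitors. In CAC, 0 members were called over all 6 libraries (0.546% of all genes higher and 4.83% lower). DESeq2 called 4 (3.14% and 10.7%) and one fit of all 18 libraries called 6 (3.76% and 10.9%). Leaving out a library gave 0 to 4, the 4 without RNF138fl/fl replicate 3 (0.911% and 5.25%). In organoids 8 were called (7.94% of all genes higher and 7.04% lower), and 5 when scaled to epithelial markers (23.4% and 2.7%). The fit of all 18 libraries called 4, all lower, with 4.01% of all genes called lower. For CAC against colitis in RNF138fl/fl, 7 were called (9.78% of all genes higher) and 4 in a fit of only those 6 libraries (6.75%). For organoids against CAC in the libraries labelled RNF138-/-, 4 were called (17.9% of all genes higher and 26.5% lower). Without TMM 7 were called, when 2177 of 19390 genes were called higher and 8153 lower. For CAC minus colitis 3 were called (2.57% of all genes higher and 9.37% lower), and 1 to 4 with a library left out. The 1 came without colitis RNF138fl/fl replicate 1 or 2, colitis replicate 1 or CAC replicate 2 labelled RNF138-/-. Of these omissions, shares of all genes are given only without CAC RNF138fl/fl replicate 3, where 4 were called (1.17% and 5.83%). The cause of these changes was not tested.

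Values that changed sign are given with their range over single omitted libraries. In colitis, Rnf43 was between −0.290 and 0.112, Dkk2 between −0.063 and 0.457 and Apcdd1 between −0.081 and 0.126, with Apcdd1 at −0.018 without TMM and −0.007 without the filter. In organoids, Dkk3 was between −0.042 and 0.152, and at −0.127 without TMM. Nkd2 in RNF138fl/fl was between −0.747 (without CAC replicate 3) and 0.406 in CAC against colitis, and between −0.176 and 1.032 in organoids against CAC, where it was called only without CAC replicate 3. Dkk2 in organoids against CAC labelled RNF138-/- was between −0.166 and 0.189, and at −0.556 without TMM. Wif1 in CAC minus colitis was between −0.121 (without CAC RNF138fl/fl replicate 3) and 1.123. No other of these was called.

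Deviations of same-numbered libraries from their group means correlated at −0.193 to 0.467, over 0.1 in 3 of 9 pairs. With 3 libraries per group, these values cannot show whether the replicate numbers pair the samples. With numbers as a replicate block, 7 members were called between genotypes in organoids (13.5% of all genes), 0 in CAC (6.08%) and 0 in colitis (0.535%). Between models, in the order of the report, 7, 9, 9 and 4 were called (13.3%, 36.8%, 44.1% and 44.3%), and 3 and 8 in the interactions from colitis to CAC and from CAC to organoids (11.5% and 19.1%).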
